A study of Mus musculus with 20 samples.

Results

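Genes of the extracellular matrix and of its integrin receptors were compared between the Fob3b and F mouse lines. The members were 37 of the 6970 genes named on 2 spotted cDNA array designs, chosen by symbol: collagens, laminins, matrix metalloproteinases, their Timp inhibitors, integrin alpha and beta subunits, Sparc and Serpinh1. The first design carried 14 of them among 3838 genes and the second 27 among 4075, with 4 genes on both. Itgb3bp entered by the letters of its symbol, although it encodes a centromere protein and transcriptional coregulator and no integrin subunit.

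The Fob3b line carries lean-line alleles at the obesity locus of that name in the background of the F line, which had been selected for fatness. Total RNA of liver and of brown adipose tissue (the heat-producing fat) was pooled, 2 pools per line and tissue, and the sources used here do not give the number, age or sex of the mice in a pool. Each pool pair, Fob3b pool 1 with F pool 1 or Fob3b pool 2 with F pool 2, was hybridised on a slide with Fob3b in red and again with Fob3b in green. Pairs of both tissues were run on the first design, and both liver pairs but only brown adipose pair 1 on the second. Liver arrays without a matched line comparison were 2 self-self arrays (first design) and, on the second, 2 arrays with crossed pools and 2 that set pool 2 beside pool 1 of a single line.

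The values are log2 ratios of Fob3b over F relative to the median of each array. The numerator dye is not stated, so a positive value means more RNA in Fob3b only if red was divided by green, and otherwise every sign turns together. Only ratios were deposited, so neither the labelled tissues nor signal over background could be checked, and their number, 10 arrays per design, limits the precision. Paired spots of a clone correlated at 0.760 to 0.932 within an array on the first design and at 0.636 to 0.865 on the second. After the ratios were turned to Fob3b over F, the dye-swapped arrays of a pair correlated across all genes at 0.116 and -0.289 in first-design liver, -0.214 and -0.576 in first-design brown adipose tissue, and 0.0582 and 0.34 in second-design liver. The figure of the first-design members therefore shows every array beside the mean, while the text gives several of them by their mean alone.

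Fibril-forming collagens give connective tissue its tensile strength, and type IV collagen and laminins build the basement membranes around vessels and adipocytes. Matrix metalloproteinases cleave these proteins, Timp proteins inhibit the proteinases, and integrins, each an alpha-beta dimer, anchor cells to the matrix. In liver most fibrillar collagen comes from stellate cells and fibroblasts, and in adipose tissue from adipocytes and stromal cells.

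In second-design liver, the most precise comparison, Mmp2 and Col1a1 lay farthest from 0 among the 27 members, both on the negative side, and Serpinh1 lay farthest on the positive side. None passed an adjusted p of 0.05 in limma. Over all genes 7 of 4075 passed (0.172%), 1 positive and 6 negative. At an unadjusted p under 0.05 there were 6 members of 27 (22.2%), against 9.87% of all genes. Serpinh1 and Itga3 were on the positive side, as were 3.24% of all genes, and Mmp2, Col1a1, Col6a5 and Col9a3 on the negative side, as were 6.63% of all genes. In these pooled tissues, fewer cells of a type and less RNA per cell cannot be told apart.

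Mmp2, the gelatinase that degrades denatured and type IV collagen, had log2 ratios of -0.41 and -0.27 on the arrays of pool pair 1 and -0.80 and -0.58 on those of pool pair 2, with Fob3b in red given first. All 4 arrays were negative, and pair 2 lay further out than pair 1. Its mean was -0.51 ± 0.24 (SD, n = 2 pool pairs), a 1.43-fold difference. The SE of 0.09 and the 95% confidence interval of -0.72 to -0.31 are limma's. They rest on a variance drawn mostly from all genes and are narrower than the 2 pool pairs alone would give. The adjusted p in limma was 0.0725, and by size the gene ranked 13 of 4075. The other metalloproteinase of this design, Mmp7 (matrilysin), was also negative on all 4 arrays, between -0.30 and -0.07, with a mean of -0.17 ± 0.07 (SD, n = 2; adjusted p = 0.509).

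Among the inhibitors, Timp3, which binds to the matrix itself, was positive on all 4 arrays at 0.03 to 0.20 (mean 0.11 ± 0.01 SD, n = 2, adjusted p = 0.757). Timp2, which takes part in the activation of pro-Mmp2 as well as inhibiting the active enzyme, averaged 0.11 ± 0.14 and was negative on 1 of 4 arrays. Timp4 averaged -0.05 ± 0.13 (SD, n = 2). Both proteinases had negative means and 2 of 3 inhibitors positive ones, with none of the 5 past the test. These signs did not all hold when the same pools were paired crosswise. The crossed means were -0.14 for Mmp2, 0.01 for Mmp7, 0.02 for Timp2, -0.09 for Timp3 and 0.03 for Timp4.

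Col1a1, which encodes the alpha-1 chain of type I collagen, had ratios of -0.70 and 0.03 on the arrays of pair 1 and -0.57 and -0.39 on those of pair 2, Fob3b in red first. It was negative on 3 of 4 arrays, and the dye-swapped arrays of pair 1 lay far apart. The mean was -0.41 ± 0.10 (SD, n = 2; SE 0.08), a 1.33-fold difference, with an adjusted p of 0.0725 in limma. Without the pair 1 array that had Fob3b in red, the mean was -0.22 with an adjusted p of 0.914.

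The partner chain of type I collagen stood nearer to 0. Col1a2 averaged -0.06 ± 0.12 and Col3a1 (type III collagen) -0.02 ± 0.09 (SD, n = 2 each), with adjusted p of 0.89 and 0.972. The 4 clones of Col3a1 differed in sign, from -0.20 to 0.09. Col5a2, the type V chain that helps to set fibril diameter, averaged -0.03 ± 0.20, with the pairs on opposite sides. The Col1a1 interval, -0.58 to -0.23, and the Col1a2 interval, -0.24 to 0.12, overlapped at their ends, and the difference between these genes was not tested.

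Serpinh1, the endoplasmic reticulum chaperone of procollagen, was positive on every array: 0.29 and 0.24 in pair 1 and 0.07 and 0.40 in pair 2. Its mean was 0.25 ± 0.02 (SD, n = 2; SE 0.08), 1.19-fold, adjusted p = 0.227. This side holds relative to the array median: without centring Serpinh1 stood at -0.11. Sparc, a collagen-binding matricellular protein, averaged 0.05 ± 0.19, with the pairs on opposite sides of 0.

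Positive means were found for 8 of 27 members, against 51.4% of all genes. Of the 13 collagens, 11 had negative means and 2 positive, with a median of -0.06 against 0 over all genes. The counts were 10 and 3 when each printing block was centred 12 and 1 when arrays were scaled to a common spread, and 13 and 0 without centring, where the median of all genes was -0.36 and all 27 members were negative. Beside Col1a1 the lowest were Col9a3 (a fibril-associated collagen, -0.23 ± 0.21, adjusted p = 0.439), Col6a5 (-0.21 ± 0.12, adjusted p = 0.397) and Col4a1 (-0.21 ± 0.28, adjusted p = 0.546). Col9a3 was negative on all 4 arrays, between -0.48 and -0.01. Col6a5 had 0.28 on 1 array and -0.54 to -0.11 on the others. Col6a1, a chain of the microfibril-forming type VI collagen, was also negative on every array, from -0.24 to -0.07, with a mean of -0.15 ± 0.02 (adjusted p = 0.585).

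The basement membrane chains did not lie together. Col4a1 and Col4a2, which combine in the common form of type IV collagen, averaged -0.21 ± 0.28 and 0.01 ± 0.03 (SD, n = 2 each). The Col4a1 value came mainly from 1 of its 2 clones, at -0.35 against -0.06, and from 1 array at -0.79, the others lying between -0.14 and 0.12. Col4a5 was positive in pair 1 (0.26) and negative in pair 2 (-0.37). Col18a1, the source of endostatin, averaged -0.04 ± 0.03, and its 2 clones were at -0.04 and -0.03. Col14a1 averaged -0.03 ± 0.07. The highest collagen was Col12a1, a fibril-associated collagen, positive on all arrays between 0.02 and 0.24 (mean 0.11 ± 0.03, adjusted p = 0.739).

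Of the laminin chains, Lamc1, the gamma chain of most laminins, averaged 0.11 ± 0.06, Lamb1 -0.04 ± 0.05 and Lama3 -0.01 ± 0.00 (SD, n = 2 each). Among the integrins, Itga3, the alpha subunit of a laminin receptor, was positive on all arrays between 0.01 and 0.34, with a mean of 0.19 ± 0.14 (adjusted p = 0.488). Itga6, another laminin receptor subunit, averaged -0.06 ± 0.21. Itgb1, the beta subunit shared by many integrins, averaged -0.01 ± 0.14, within -0.13 to 0.16 on the arrays. Itgb7, a beta subunit of lymphocytes, averaged -0.18 ± 0.15 (adjusted p = 0.509). One sign on all 4 arrays was seen for 8 members of 27 (29.6%), against 19% of all genes. The members were 4 of each sign, against 9.89% positive and 9.15% negative among all genes.

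**Figure D1:**
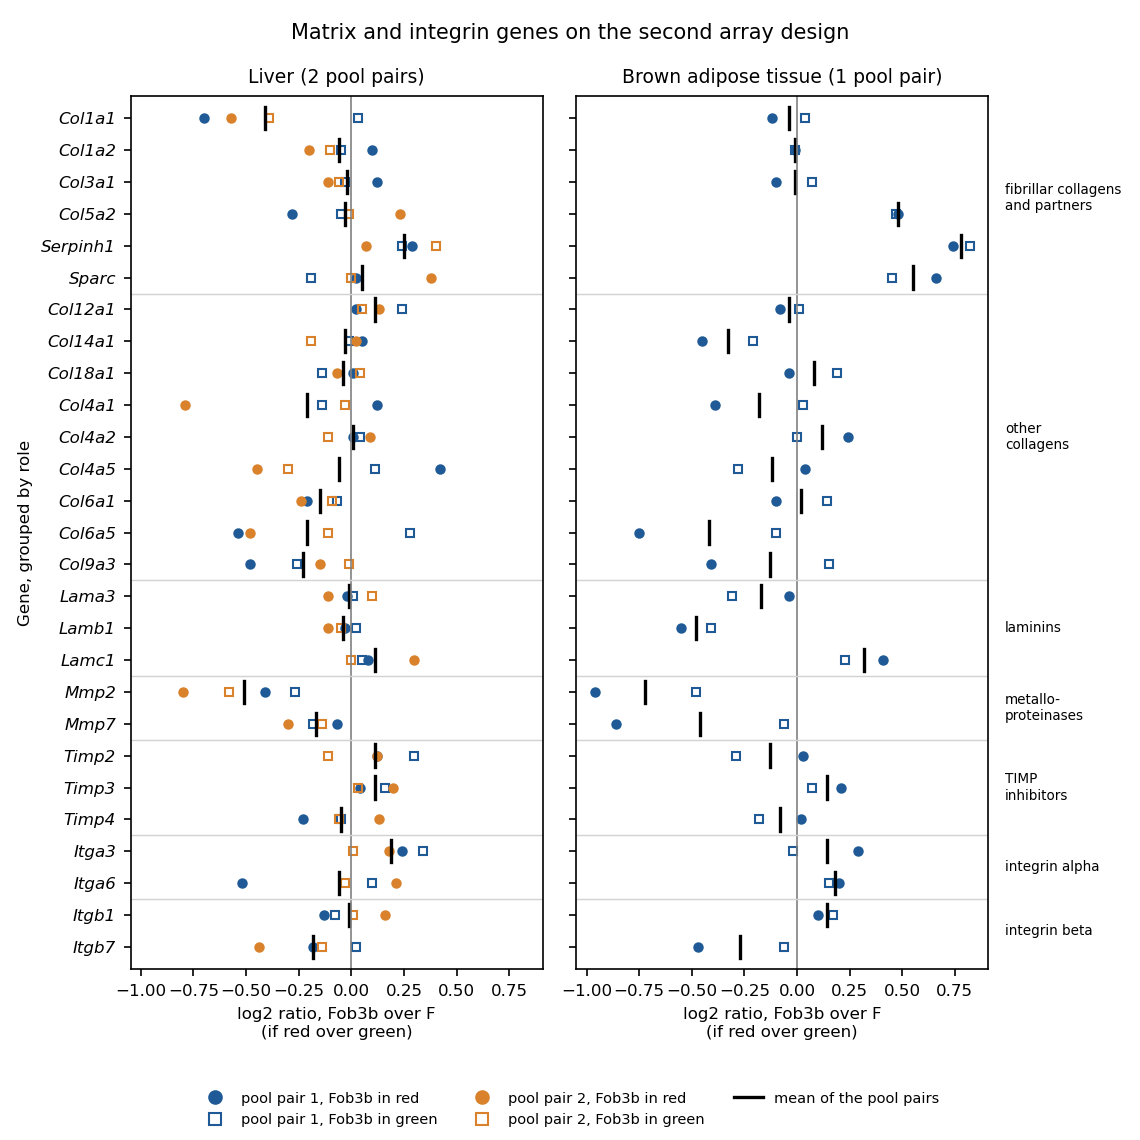
Log2 ratio of Fob3b over F (if red over green) for each of the 27 members on the second design, in liver (left, 2 pool pairs) and brown adipose tissue (right, 1 pool pair). Filled points have Fob3b in red and open points Fob3b in green, colours mark the pool pair, and the black bar is the mean of the pool pairs: Mmp2 and Col1a1 lie lowest in liver, at -0.51 and -0.41, and Serpinh1 and Mmp2 lie at the ends in brown adipose tissue, at 0.78 and -0.72.

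Brown adipose tissue on the second design came from pool pair 1 alone, so its values have no replicate check and no test. The labels of these slides conflict: their descriptions name the F line on both sides, which would leave no line difference, while the channel labels name Fob3b in 1 channel and F in the other. The channel labels were used, and every second-design brown adipose value depends on them. Mean ratios past 1.5-fold were found for 2 members of 27, Serpinh1 and Mmp2, against 62 of 4075 genes (1.52%). Serpinh1 had 0.74 with Fob3b in red and 0.82 with Fob3b in green, a mean of 0.78 (1.71-fold), rank 15 of 4075 by size. Mmp2 had -0.96 and -0.48, a mean of -0.72 (1.65-fold), rank 22. Each gene thus had 1 sign on every matched-pool array of the second design, in liver and in brown adipose tissue, as had Mmp7 (negative) and Timp3 (positive). The share of all genes with 1 sign on all of these arrays was not counted, so this cannot be read as particular to these members. Within a tissue that share was 19% in liver and 63.3% in brown adipose tissue.

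Next on the positive side came Sparc at 0.55 (0.66 and 0.45), Col5a2 at 0.48 (0.48 and 0.47) and Lamc1 at 0.32 (0.41 and 0.23). Their dye-swapped arrays lay on the same side in each case. The same held for 16 of 27 members (59.3%) and for 63.3% of all genes. On the negative side were Lamb1 at -0.48 (-0.55 and -0.41), Mmp7 at -0.46 (-0.86 and -0.06), Col6a5 at -0.42 (-0.75 and -0.10) and Col14a1 at -0.33 (-0.45 and -0.21). The Mmp7 and Col6a5 values rest mostly on the array with Fob3b in red. Lamb1 had clones at -0.72 and -0.23, and Lamc1 at 0.43 and 0.21. Lamb1 and Lamc1, chains of the same laminin trimers, thus lay on opposite sides.

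The main fibrillar collagens stood near 0 in this tissue. Col1a1 was at -0.04, and Col1a2 and Col3a1 were both at -0.01, each within -0.12 to 0.07 on either array. Their clones differed in sign, from -0.05 to 0.03 for Col1a2 and from -0.21 to 0.12 for Col3a1. Positive means were found for 11 of 27 members and, among them, 4 of 13 collagens (median -0.04), against 56.1% of all genes (median 0.03), and with each block centred the collagen count was 6 of 13. Without centring, where the median of all genes was -0.33, 3 of 27 members and 1 of 13 collagens were positive. Outside the fibril-forming chains, the highest collagen was Col4a2 at 0.12, and Col4a1 was at -0.18.

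Integrin subunits were Itga6 at 0.18, Itga3 and Itgb1 at 0.14 and Itgb7 at -0.27. Lama3 was at -0.17, and Timp3, Timp4 and Timp2 were at 0.14, -0.08 and -0.13. Of 13 skeletal muscle markers, 2 were measured on this design, Tpm2 at 0.73 and Mylpf at 0.69, both past 1.5-fold. In first-design brown adipose tissue the 2 measured, Tpm2 and Actn3, were at -0.58 and -0.47. In pool pair 1, which both designs share, Tpm2 was at -0.89 on the first design and at 0.73 on the second. The same gene in the same pool pair thus lay on opposite sides of 0. Neither the source of this reversal nor the part of muscle markers in the member values was tested.

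The same 4 liver pools were also paired crosswise on the second design, each combination on 1 array without a dye swap of its own. Fob3b pool 1 in green was set against F pool 2 in red, and Fob3b pool 2 in red against F pool 1 in green. Together the crossed arrays hold both dye orientations. These arrays share their RNA with the matched pairs, so the values are set side by side. Mmp2 was at 0.03 and -0.32 in the crossed arrays (mean -0.14), beside -0.34 and -0.69 in the matched pairs. Col1a1 was at 0.22 and 0.12 (mean 0.17), beside -0.34 and -0.48. For both genes the crossed mean lay above the matched one, and for Col1a1 it lay on the other side of 0. Matched and crossed means hold the same 4 pools, so without measurement error they would be equal. The 2 means had the same sign for 11 of 27 members (40.7%), against 50% of all genes. Their median absolute difference was 0.0922 over the members and 0.0955 over all genes. The median absolute matched mean of the members was 0.105.

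Serpinh1 was at 0.34 and -0.34 in the crossed arrays, which cancel to 0.00, beside 0.27 and 0.24 in the matched pairs. Itga3 was at 0.01 and -0.02, Col9a3 at -0.25 and 0.03, and Col6a5 at 0.46 and -0.52. Col6a1 kept close values, at -0.13 and -0.20 crossed and -0.14 and -0.16 matched. With the crossed arrays added as another pair, the Mmp2 mean was -0.39 (adjusted p = 0.49), Col1a1 -0.22 (adjusted p = 0.712) and Serpinh1 0.17 (adjusted p = 0.617).

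**Figure D2:**
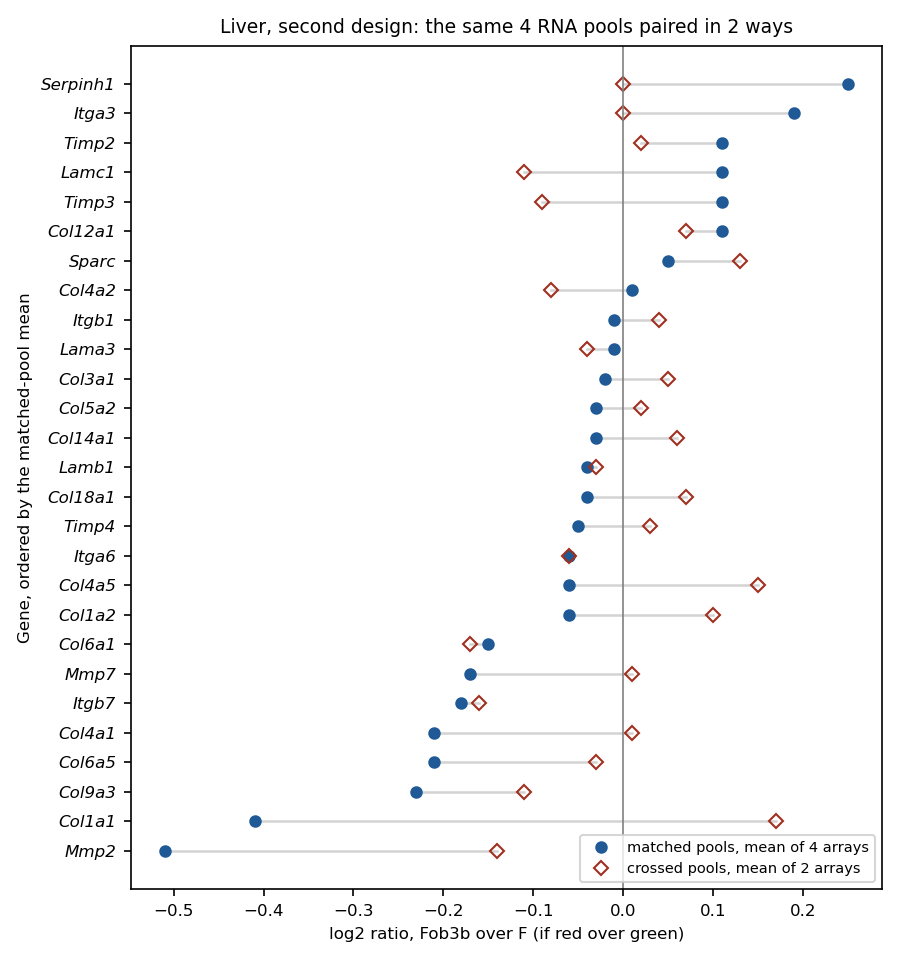
Mean log2 ratio of Fob3b over F (if red over green) in liver on the second design for each of the 27 members, with the 4 RNA pools matched (filled circles, 4 arrays) and crossed (open diamonds, 2 arrays). The circles run from -0.51 (Mmp2) to 0.25 (Serpinh1), and the longest line is that of Col1a1, from -0.41 matched to 0.17 crossed.

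Some member clones had printed neighbours whose median lay on the same side of 0. The 10 clones printed nearest to Mmp2 had a median of -0.27 in liver and -0.56 in brown adipose tissue, 8 of 10 negative in each, while the medians of its whole block were -0.07 and -0.12. The neighbours of Col6a5 had medians of -0.19 and -0.39, and those of the Col4a1 clone that stood at -0.35 in liver had -0.44 and -0.46. The part of printing position in the member values was not tested. With every block centred, Mmp2 in liver was at -0.44 (adjusted p = 0.0521) and in brown adipose tissue at -0.61.

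Further clones lay close to their neighbours: Itgb7 at -0.18 with neighbours at -0.21 in liver and at -0.27 with neighbours at -0.27 in brown adipose tissue, and the other Lamb1 clone at -0.23 with neighbours at -0.30 in brown adipose tissue. Col14a1 there stood at -0.33 with neighbours at -0.17. Of the 35 member clones, 29 in liver and 23 in brown adipose tissue had the sign of their neighbours' median. On the first design 8 of 17 member clones had it in liver and 12 of 17 in brown adipose tissue. The share over all clones was not counted, so these counts cannot be read as particular to the members. The neighbours of Serpinh1 had medians of 0.01 in liver and -0.04 in brown adipose tissue, those of Col1a1 -0.07 in liver, and those of Sparc, Col5a2 and the Lamb1 clone at -0.72 stood at 0.11, 0.06 and 0.06 in brown adipose tissue. With blocks centred, Col1a1 in liver was at -0.39 with an adjusted p of 0.0301, so this gene passed under that setting, and Serpinh1 was at 0.24 (adjusted p = 0.101).

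**Figure D3:**
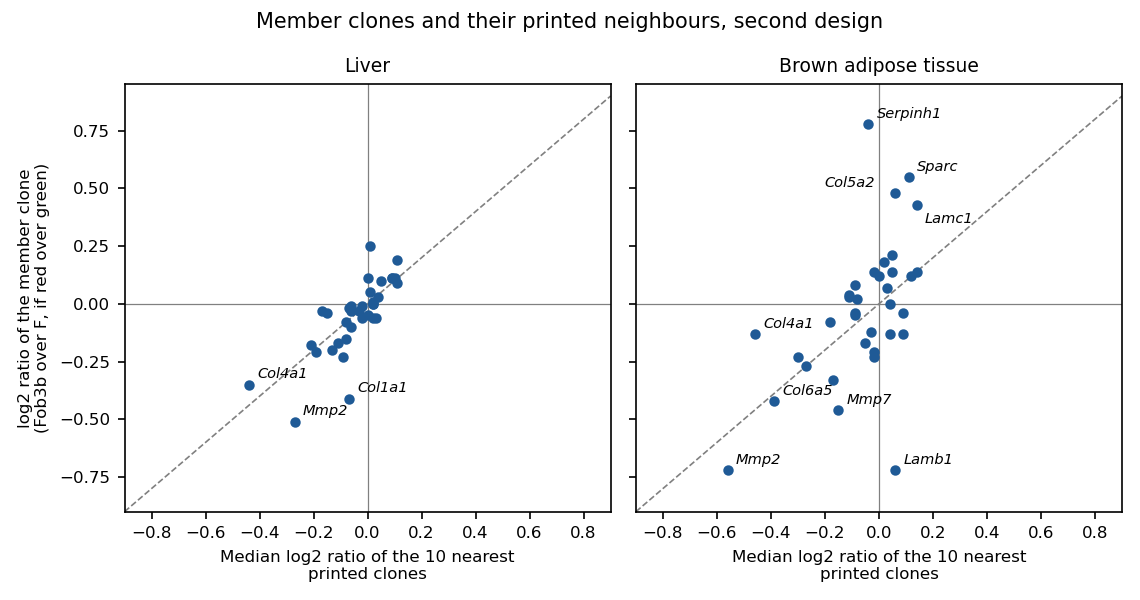
Log2 ratio of each of the 35 member clones of the second design (vertical) against the median of the 10 nearest printed clones (horizontal; fewer at a block's edge), in liver (left) and brown adipose tissue (right). The dashed line marks equal values: Mmp2 in brown adipose tissue lies near it, at -0.72 against -0.56, while Serpinh1 lies far above it, at 0.78 against -0.04.

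On the first design the arrays were noisier, and no member passed the test in either tissue. In liver, 0 of 3838 genes passed (0%), the smallest adjusted p was 1, and unadjusted p was under 0.05 for 2 members of 14 (14.3%) against 2.71% of all genes. These were Col2a1 and Itgb3bp, both positive, against 1.3% of all genes on that side. In brown adipose tissue, 0 of 3838 genes passed (0%), with 0 members and 1.02% of all genes at an unadjusted p under 0.05. The median SE of a member was 0.20 in each tissue, against 0.08 in second-design liver.

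Col2a1, the chain of cartilage type II collagen, had 0.54 and 0.29 in liver pair 1 and -0.06 and 1.47 in pair 2, Fob3b in red first. It was positive on 3 of 4 arrays, with 1 array far above the rest. The mean was 0.56 ± 0.21 (SD, n = 2; SE 0.19), 1.47-fold, adjusted p = 1. On the self-self arrays, where the channel labels name a single pool, Col2a1 gave 0.25 (Fob3b) and 0.82 (F), values of the same size as the line comparison.

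Itgb3bp was positive on every liver array, at 0.16 and 0.08 in pair 1 and 1.34 and 0.34 in pair 2, with a mean of 0.48 ± 0.51 (adjusted p = 1). Its self-self values were -0.22 (Fob3b) and 0.53 (F). In the liver line comparison its paired spots averaged 0.23 and 0.73. The clones printed nearest to it had a median of 0.17, and its block had 0.27. With every block centred, Itgb3bp in liver was at 0.19 (adjusted p = 0.941). Itgb4, the beta subunit of hemidesmosomes, was negative on all 4 liver arrays, from -0.53 to -0.03, with a mean of -0.27 ± 0.21 (adjusted p = 1). All 10 clones printed nearest to Itgb4 were negative, with a median of -0.23, and its block median was -0.21. The part of printing position was not tested here either. Itgb3bp and Itgb4 were the 2 members of 14 (14.3%) with 1 sign on all 4 liver arrays, against 8.31% of all genes. Of all genes, 4.85% were positive and 3.47% negative on all 4. Col22a1, a fibril-associated collagen, averaged 0.27 ± 0.94, with -0.39 in pair 1 and 0.94 in pair 2, and reached 0.43 (Fob3b) and 1.30 (F) on the self-self arrays.

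The other liver means lay between -0.11 (Itgb5, a vitronectin receptor subunit) and 0.11 (Lamb1). Positive means were found for 10 of 14 members, against 44.9% of all genes, and the 4 laminin chains were among them, 0.03 for Lamc1, 0.05 for Lama1, 0.08 for Lama5 and 0.11 for Lamb1. Lamb1 and Lama5 each had clones of opposite sign, at -0.11 and 0.32 and at -0.03 and 0.18. Itga5, the fibronectin receptor subunit, averaged -0.08, and Itga9, which binds tenascin, 0.10 with arrays from -1.16 to 2.33. Mmp23, a membrane-anchored metalloproteinase, was at -0.01 and gave 0.35 (Fob3b) and 1.01 (F) on the self-self arrays.

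In brown adipose tissue the highest member was Sparc, with 0.28 and 0.00 in pair 1 and 0.95 and -0.17 in pair 2 (mean 0.26 ± 0.18, SD, n = 2, adjusted p = 1). Its 2 clones stood at 0.25 and 0.28, while its arrays ranged from -0.17 to 0.95. The lowest was Lama1, the alpha chain of early basement membranes, negative on all 4 arrays from -0.40 to -0.14, with a mean of -0.25 ± 0.09 (adjusted p = 1). Lama1 was the only member of 14 with 1 sign on every array in this tissue (7.14%), against 6.25% of all genes with 1 sign on every array, 3.02% negative on all 4.

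Col2a1 and Mmp23 were both at -0.22 in brown adipose tissue, and Col22a1 was at -0.11. Positive means were found for 5 of 14 members, against 59.3% of all genes, and the 4 laminins, from -0.25 to -0.03, were not among them. Without centring, where the median of all genes stood at 0.30, all 14 members were positive, and in liver 6 of 14. The clones of Lamb1 were at -0.47 and 0.13 and those of Lama5 at -0.07 and 0.01. Timp3 averaged 0.10 ± 0.16 and Itgb3bp 0.06 ± 0.03. Itgb5 averaged 0.01, from a pair 1 value of 0.78 and a pair 2 value of -0.77, and Itga9 averaged -0.15 ± 0.55. Itga5 was at -0.06 and Itgb4 at 0.02.

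Across the first design the pool pairs had opposite signs in 9 of 14 members in liver and 8 of 14 in brown adipose tissue. Over all genes, 40.5% had the same sign in both pairs in liver and 42.4% in brown adipose tissue. Median absolute values of the members on single line-comparison arrays ran from 0.19 to 0.49 in liver and from 0.19 to 0.34 in brown adipose tissue. On the self-self arrays, where the channel labels name a single pool, they ran from 0.24 to 0.35, within the range of the liver line comparison. Over all genes the medians ran from 0.16 to 0.23 on the self-self arrays and from 0.19 to 0.31 in the liver line comparison. The description of the Fob3b self-self slide names both lines, so the lack of a line difference there rests on its channel labels.

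**Figure D4:**
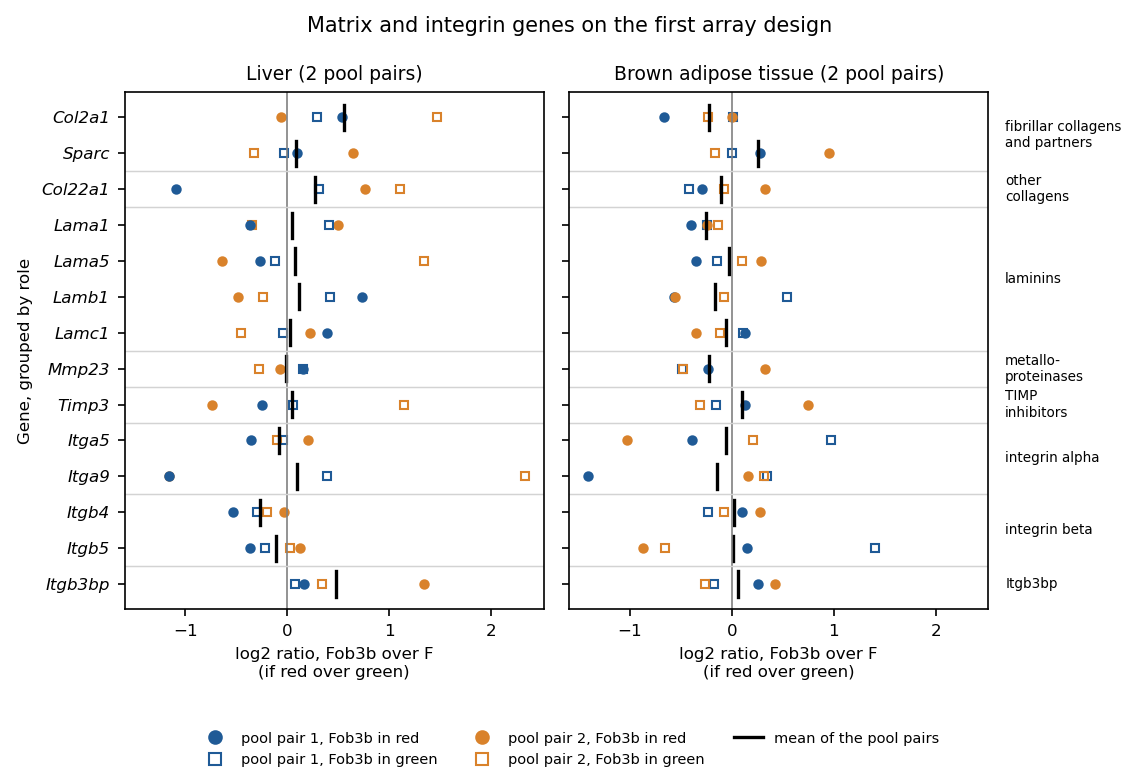
Log2 ratio of Fob3b over F (if red over green) for each of the 14 members on the first design, in liver (left) and brown adipose tissue (right), 2 pool pairs each. Filled points have Fob3b in red and open points Fob3b in green, colours mark the pool pair and the black bar is the mean: the arrays of a gene spread far wider than the means, for Itga9 in liver from -1.16 to 2.33 around 0.10.

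Whether the line difference differed between tissues could be tested on the first design only. No member passed in limma, and 0 of 3838 genes did (0%), with 1 member of 14 (7.14%) and 3% of all genes at an unadjusted p under 0.05. That member was Col2a1, at 0.56 in liver and -0.22 in brown adipose tissue, a difference of 0.78 (SE 0.27, adjusted p = 1). The next was Itgb3bp, at 0.48 in liver and 0.06 in brown adipose tissue, a difference of 0.42 (SE 0.30, adjusted p = 1). For the other members this difference lay between -0.28 (Itgb4) and 0.39 (Col22a1).

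Lamb1, Lamc1, Sparc and Timp3 were measured on both designs from the same pools, with clones of their own on each. In brown adipose pair 1, the second and then the first design gave Sparc 0.55 and 0.14, Lamc1 0.32 and 0.12, Timp3 0.14 and -0.01, and Lamb1 -0.48 and -0.02. Sparc and Lamc1 lay on the positive side on both designs, with the first giving the smaller value. In liver, Sparc had -0.08 and 0.19 in pairs 1 and 2 on the second design and 0.03 and 0.15 on the first, and Timp3 had 0.10 and 0.11 on the second and -0.09 and 0.20 on the first. Lamb1 in liver was at 0.00 and -0.08 on the second design but at 0.58 and -0.36 on the first, and Lamc1 at 0.06 and 0.15 against 0.18 and -0.11.

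Other genes of the matrix and of integrin adhesion gave the setting of these members. Of 74 other matrix genes (glycoproteins, proteoglycans and collagen-modifying enzymes), 23 were on the second design and 12 on the first, and 0 passed in any tested comparison. Second-design liver had 10 positive and 13 negative among the 23 (median -0.03), within -0.25 to 0.27. In second-design brown adipose tissue 13 of 23 (56.5%) were positive (median 0.11), against 56.1% of all genes. The farthest from 0 there were Sdc4 (the heparan sulfate proteoglycan syndecan 4) at -1.07, Ltbp1 at -0.43 and Ecm1 at -0.37. On the first design, Plod3, a lysyl hydroxylase of collagen, was at 0.59 in liver (adjusted p = 1) and at 0.36 in brown adipose tissue.

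Of 34 integrin adhesion genes, 14 were on the second design. In brown adipose tissue 12 of these 14 (85.7%) were positive, against 56.1% of all genes, with a median of 0.14 against 0.03. These values come from 1 pool pair with conflicting slide labels and were not tested. Cd151 (a tetraspanin bound to laminin-receptor integrins) was at 0.45, Cdc42 at 0.32 and Cav1 at 0.31. In liver 9 of 14 were positive, against 51.4% of all genes, with a median of 0.03, within -0.05 to 0.25, and 0 passed. On the first design 5 of 10 were positive in each tissue, against 44.9% of all genes in liver and 59.3% in brown adipose tissue.

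Markers of matrix-producing cells were thinly covered. Of 10 mesenchymal markers, the second design held Pdgfrb, at 0.09 in liver and 0.19 in brown adipose tissue, and Vim, at -0.15 and -0.29. The first design held Pdgfra, at -0.19 in liver and -0.21 in brown adipose tissue. Of 11 endothelial markers, Cd34 on the second design stood at 0.05 in liver and 0.01 in brown adipose tissue. Cdh5, Emcn and Esam, on the first design, stood at 0.64, -0.09 and -0.17 in liver and at 0.21, 0.08 and 0.03 in brown adipose tissue. All 4 hepatocyte markers measured there had negative means in liver, with a median of -0.28, the farthest being Alb at -0.74 (-1.26 in pair 1 and -0.22 in pair 2, adjusted p = 1). The pool pairs differed, with a hepatocyte marker median of -0.83 in pair 1 and 0.20 in pair 2. In pair 2 Apoa1, Apob and Ttr were positive, at 0.31, 0.24 and 0.16. The part of these cell types in the member values was not tested.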

How the data were processed

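RNA pools of liver and brown adipose tissue from the Fob3b and F lines were hybridised on 2 designs of two-colour cDNA array, 10 arrays each. The deposited values are 1 log2 ratio per spot and array, with no intensities; the sources used here do not give the authors' scanning, background or normalization steps, the log base or the numerator. They were read as log2 because base 10 would give impossible dye ratios; a natural log cannot be told apart, and folds depend on base 2.

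The median of its clone spots was subtracted from each array (17280 spots, 1920 control spots left out), the paired spots of 7680 clones and then the clones of a gene were averaged, and ratios were turned to Fob3b over F by the channel labels, which name Fob3b and F on the second-design brown adipose slides although the descriptions there name the F line on both sides, and Fob3b in both channels of a self-self slide whose description names both lines. Clones with several symbols or none were left out. Both dye orientations of a pool pair were averaged, so n is 2 pool pairs. Whether pools hold separate animals is not stated, and p-values measure the spread between pools only.

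All genes of a design were fitted with limma 3.58.1 (R 4.3.3), tissue as factor, two-sided, Benjamini-Hochberg over all genes, threshold 0.05. Brown adipose tissue on the second design (1 pair) entered the fit untested. Every SE and interval uses limma's moderated variance, which draws on all genes of the design. Its prior and residual degrees of freedom were 10 and 2 on the first design and 9.25 and 1 on the second. Medians and counts of lists are descriptions. Steps were tested on simulated data. Symbols come from GEO's platform annotation, checked against RefSeq, with 0 symbols changed. Alternatives were other centrings and scaling, clone and spot handling, variance settings, the pool number as a block, and leaving out pairs or arrays.

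The members, lists, roles and rule for naming genes were chosen with earlier results of these data known. The rule named, per comparison, up to 5 members on each side farthest from 0 with 1 sign in every pair, members on both designs or with clones of unlike sign, each role's highest and lowest, and at most 4 genes of another list; Tpm2 and Mylpf are all the muscle markers of their design. Further members were named to account for all 37.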

Additional observations from a re-analysis of the deposited data

Results flagged for a closer look

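Of 55 groups of 4 line-comparison arrays (each member in each tissue and design), 1 held an array far from the others. In first-design brown adipose tissue, Itga9 had -1.41 on the pool pair 1 array with Fob3b in red, while the other 3 arrays lay between 0.16 and 0.34, so the gap was 0.897 of the whole range. Chance gives such an array in about 1 in 20 groups. Before the ratios were turned to Fob3b over F, Itga9 was negative on 7 of the 8 line-comparison arrays of this design.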

How the results depend on the processing

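Counts of members past the test stayed at 0 for first-design liver, first-design brown adipose tissue and the liver minus brown adipose tissue difference under all alternatives run, including the replicate block, which gave 0 in each (same-numbered pools deviated together at a correlation of 0.372 across 3838 genes, but with 2 pairs the numbers are not shown to pair the samples). In second-design liver the count became 2 without centring (Mmp2 -0.88, adjusted p = 0.0122, and Col1a1 -0.77, adjusted p = 0.035), 1 with each printing block centred (Col1a1), and 0 to 1 when an array was left out: without the pair 1 array with Fob3b in red, Mmp2 had -0.48 with an adjusted p of 0.00623. Over 14 alternatives with a test, the adjusted p ran from 0.00623 to 0.49 for Mmp2 and from 0.0301 to 0.914 for Col1a1. With a whole pool pair left out of second-design liver no residual degrees of freedom remain, and Mmp2 was then a value only, at -0.69 without pair 1 and -0.34 without pair 2.

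Without centring, all 8 positive members of second-design liver turned negative, Itga3 to -0.18 and Serpinh1 to -0.11 among them, by construction, since the median of all genes was then -0.36. Member medians moved in second-design liver from -0.04 to -0.41 without centring, -0.03 with blocks centred, -0.01 with the crossed-pool arrays added, and between -0.04 and -0.01 on leaving out a pair or array. In first-design brown adipose tissue the median of -0.06 became 0.21 without centring, -0.12 with blocks centred and -0.12 to 0.00 on leaving out, and in second-design brown adipose tissue -0.04 became -0.39 without centring and -0.04 to 0.01 on leaving out an array. There Mmp2 was at -1.08 and Serpinh1 at 0.42 without centring, and Serpinh1 at 0.66 with arrays scaled to a common spread. Centring on averaged clones, chosen after seeing the data, brought the adjusted p of Mmp2 to 0.0506. Signal over background is unknown, so no limit from signal can be given.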

Other observations

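In the livers of each line, pool 2 was also set against pool 1 on 1 array of the second design, in which Fob3b or F RNA filled both channels (red over green assumed). Col4a5 differed most between pools, at 0.59 in Fob3b and 0.53 in F. Col1a1 stood at 0.29 in Fob3b and 0.40 in F, Col9a3 at 0.20 and 0.35, and Col4a2 at 0.23 and 0.17. Col6a5 stood at 0.15 in Fob3b and -0.39 in F, and Serpinh1 at -0.25 and 0.14. The median absolute value over the 27 members was 0.09 in Fob3b and 0.12 in F, against 0.11 over all genes on either array. On the first-design self-self arrays Timp3 stood at 0.36 in Fob3b and 0.67 in F. These arrays have no dye swap and no replicate.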
